A study of Drosophila melanogaster with 9 samples.

Results

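The chemosensory receptor genes of Drosophila melanogaster comprise 3 families: odorant receptors (Or), gustatory receptors (Gr) and ionotropic receptors (Ir). Members were all protein-coding genes on X, 2L, 2R, 3L and 3R of the Release 6 gene table whose symbol is Or, Gr or Ir followed by digits and letters. This gave 179 of 13922 protein-coding genes, made up of 59 Or, 60 Gr and 60 Ir genes, of which 25 lay on X. For each gene, the covered percent is the share of its body, from the annotated start to the annotated end, that lay under H3K27me3 peaks in one library.

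Or proteins form ligand-gated channels with the co-receptor Orco, Gr proteins detect tastants, pheromones and carbon dioxide, and Ir proteins descend from ionotropic glutamate receptors and work with the co-receptors Ir8a, Ir25a or Ir76b. Most of these genes are transcribed in small sets of sensory neurons and are silent in the rest of the body. H3K27me3, the trimethylation of lysine 27 on histone H3 by the Polycomb complex PRC2, marks repressed chromatin and forms wide domains over developmental regulators.

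Chromatin immunoprecipitation and sequencing of H3K27me3 was done on ground tissue of larvae of the last larval stage, grown at 25 °C, and the labels do not say which tissues. There were 3 groups of 2 libraries, each with its own peak list: wild-type males, males with the genotype roX1[ex6]roX2[9-4], called roX mutant males here and roX KO in the plots, and wild-type females. roX1 and roX2 are the noncoding RNAs of the male dosage compensation complex. The 3 inputs were not used here. No label states that the replicates are different animals, and p-values may therefore measure technical spread alone. In chromatin from mixed larval tissue, a mark in fewer cells and less mark per cell cannot be told apart.

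Depth is unknown because peak lists hold no counts of reads, and a covered percent of 0 means no mark detectable at that depth. The lists held 4784 to 6327 peaks in males and 8896 and 10619 in females. The share of all protein-coding genes touched by a peak was 11.7% and 11.4% in wild-type males, 12.7% and 9.91% in roX mutant males, and 23.7% and 28.0% in females. Peaks covered 236 to 301 kb of Y in wild-type males, 166 and 167 kb in roX mutant males and 25.2 and 30.4 kb in females. With 2 libraries per group, the smallest two-sided p of an exact permutation test is 0.333.

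Of the 179 genes, 86 (48.0%) had no base under a peak in any of the 6 libraries, 56 were touched by a peak but covered over less than 50% of the body in every library, and 37 (20.7%) were covered over at least 50% in 1 or more libraries. Over all protein-coding genes 8932 (64.2%) had no base under a peak and 1706 (12.3%) reached 50% in 1 or more libraries. A gene at or above that 50% limit is called marked in the library. The number of marked receptor genes was 14 and 9 in wild-type males, 3 and 3 in roX mutant males, and 13 and 26 in females. The roX mutant libraries lay below all others, while the wild-type male and female ranges overlapped. By family, the 6 libraries in the same order had 4, 1, 2, 1, 3 and 8 marked Or genes, 4, 3, 0, 0, 4 and 5 Gr genes, and 6, 5, 1, 2, 6 and 13 Ir genes, so no Gr gene was marked in roX mutant males. The same counts over all protein-coding genes were 733 and 719, 564 and 432, and 936 and 1185. The median covered percent of the receptor genes was 0 in every library, as it was over all genes.

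**Figure D1:**
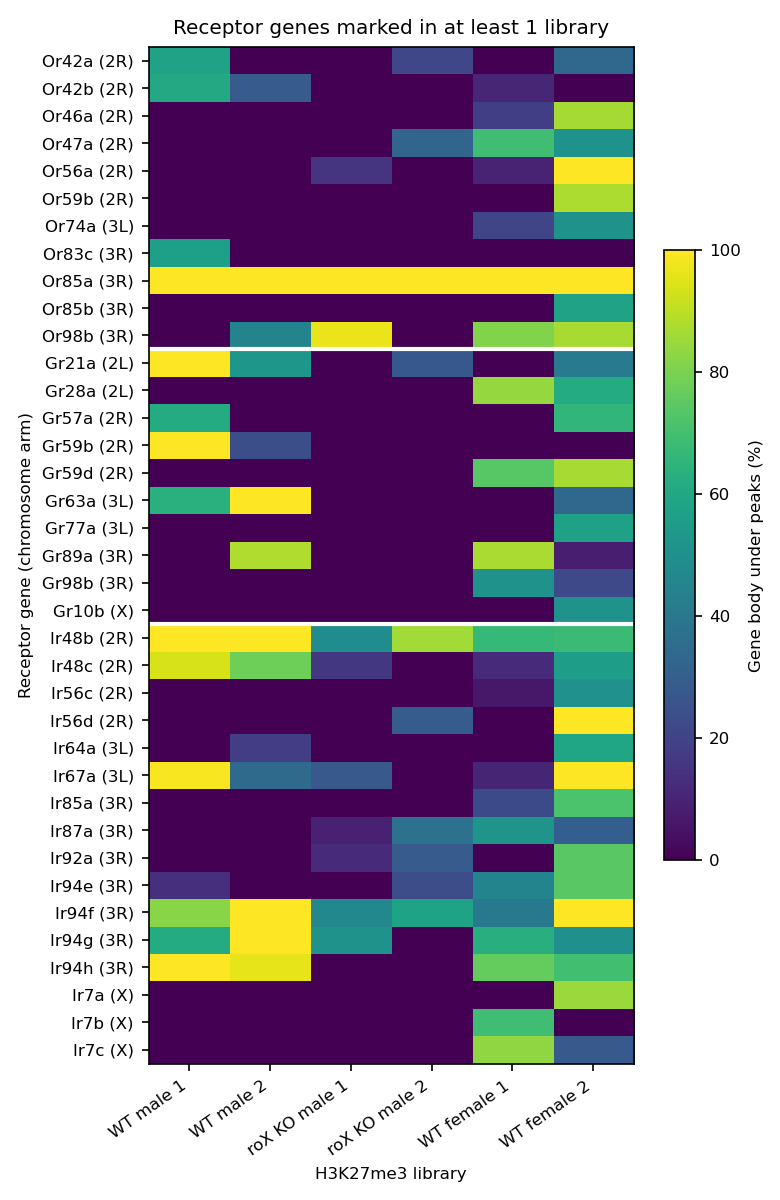
Covered percent of the gene body (colour, 0 to 100%) for the 37 receptor genes marked in at least 1 of the 6 H3K27me3 libraries, with the Or, Gr and Ir families from top to bottom and the chromosome arm in parentheses. Or85a is at 100% in all 6 libraries, and most other genes are high in 1 or 2 libraries.

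Replicates differed in which receptor genes were marked. In wild-type males 8 genes were marked in both libraries and 15 in at least 1 (53.3%), against 615 and 837 (73.5%) over all genes. In roX mutant males the numbers were 1 and 5, against 357 and 639 over all genes. In females they were 8 and 31 (25.8%), against 656 and 1465 (44.8%) over all genes. The bodies were short, with a median of 1.69 kb and a minimum of 1143 bp, close to the median width of a peak, which was 854 to 1062 bp in the 6 libraries.

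The peaks on receptor genes were mostly weak, as were most peaks in the lists. The authors' lists hold peaks with q of at most 0.1, and among peaks touching a receptor gene the share with −log10 q under 3 was 80% and 85.3% in wild-type males, 95.6% and 96.1% in roX mutant males, and 98.4% and 96.0% in females. Over all peaks on the same arms this share was 81.2% and 82.4%, 88.4% and 90.7%, and 91.8% and 92.2%. With weaker peaks left out, the wild-type male libraries had 5 and 2 marked receptor genes, against 1 and 1 in roX mutant males, and 1 and 2 in females. Those genes were Ir48b, Ir48c, Ir67a, Or85a, Ir94f and Ir94h.

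**Figure D2:**
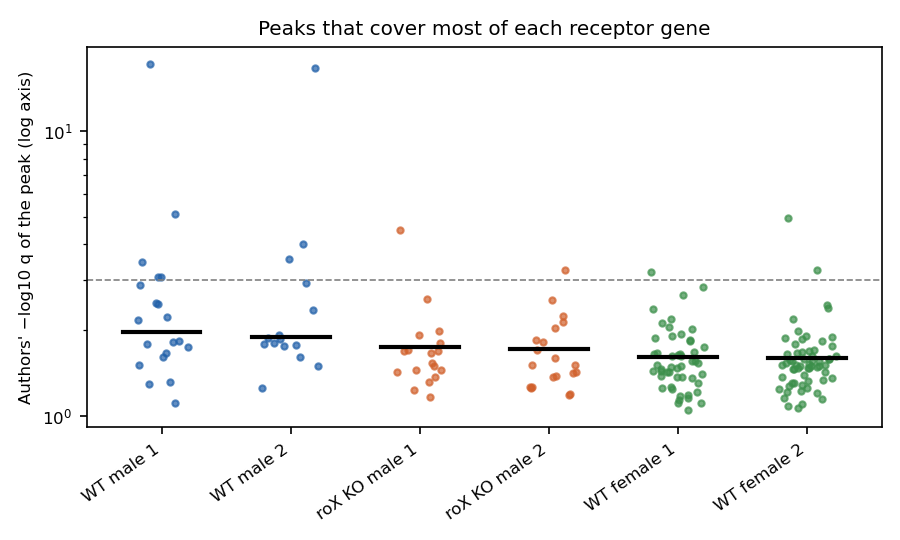
The authors' −log10 q (log axis) of the peak that covers most of each receptor gene, 1 point per peak, in each of the 6 libraries; the black bar is the median of all peaks on the 5 arms in that library and the dashed line marks 3. Few points lie above the dashed line, with Or85a highest in both wild-type male libraries at 17.2 and 16.7.

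Among the odorant receptors, Or85a, a receptor for fruit esters (3R, 8321747 to 8323054, dm6), was the 1 receptor gene marked in all 6 libraries, as 306 protein-coding genes were. It was covered over 100% in each. Its body lies within the annotated body of Poxm, a Pax family transcription factor gene, and its peak spanned 22.6 and 23.3 kb in wild-type males, 9.19 and 8 kb in roX mutant males, and 8.46 and 7.46 kb in females. No other Or gene was marked in both libraries of a male group.

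Or42a and Or42b, larval receptors for fruit odours, were marked in wild-type male replicate 1 alone. Or42a was at 57.5% and 0% in wild-type males, 0% and 21.5% in roX mutant males, and 0% and 33.9% in females. Or42b was at 60.5% and 28.8% in wild-type males, 0% in both roX mutant libraries, and 10.8% and 0% in females. Or83c, a farnesol receptor gene, was at 56.4% in wild-type male replicate 1 and at 0% in the other 5 libraries.

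Other Or genes were marked in 1 female library and in no male library. They were Or46a, Or56a (the geosmin receptor), Or59b (a receptor for acetate esters), Or74a and Or85b, all in female replicate 2, at 50.8% to 100%. Of 26 Or genes known to be expressed in larval olfactory neurons, 4 were marked in at least 1 library, against 7 of the other 33. Orco itself (3R, 5407183 to 5412406) was at 0% in the 2 libraries of wild-type males, at 0% and 11.5% in roX mutant males, and at 9.21% and 20.8% in females.

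Among the gustatory receptors, only Gr21a and Gr63a were marked in both libraries of wild-type males. These encode the pair of proteins that together detect carbon dioxide. None of the 9 sugar receptor genes (Gr5a, Gr43a, Gr61a and Gr64a to Gr64f) was marked in any library. In males none of the 9 had a base under a peak, and in females 2 and 4 of them had. Over all genes 18.3% had one in at least 1 male library, and 23.7% and 28.0% in the female libraries. The share of all genes marked in at least 1 library was 12.3%. Gr43a, the fructose receptor gene, was at 0% in all 6 libraries. Of 6 Gr genes expressed broadly in bitter neurons, Gr89a alone was marked, at 88.3% in wild-type male replicate 2 and 87.1% in female replicate 1. It was at 0%, 0%, 0% and 8.40% in the other 4 libraries, so its replicates disagreed in both wild-type groups.

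Among the ionotropic receptors, the co-receptor genes carried little signal. Ir8a (X) and Ir25a (2L) were at 0% in all 6 libraries, and Ir76b was at 7.90% in roX mutant replicate 1, 23.5% in female replicate 1 and 0% elsewhere. Of the 17 co-receptor and antennal Ir genes, none was marked in a male library, where 3.10% to 5.27% of all genes were. Ir64a (acid sensing) and Ir92a (ammonia sensing) were marked in female replicate 2. The remaining 43 Ir genes, among them taste receptors, included all 5 Ir genes that were marked in both libraries of wild-type males: Ir48b, Ir48c, Ir94f, Ir94g and Ir94h.

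Ir48b (2R, 11700647 to 11702449) was covered over 100% in the 2 libraries of wild-type males, 48.7% and 86.0% in roX mutant males, and 67.1% and 68.3% in females. Its wild-type male peaks, 11.7 and 6.98 kb wide, overlapped no other protein-coding gene. Ir67a was at 99.1% and 34.6% in wild-type males, 27.8% and 0% in roX mutant males, and 10.5% and 100% in females. The female values overlapped those of both male groups, and the roX mutant values lay below both wild-type male values. Ir40a, a humidity receptor gene (2L, 22189526 to 22214376), and Ir41a, an amine receptor gene (2R, 4917519 to 5021955), were touched in all 6 libraries and marked in none. Ir41a is 104 kb long and alone makes up 21.9% of the summed length of the receptor gene bodies.

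Males of the roX mutant genotype were compared with wild-type males to find receptor genes whose mark differed without the roX RNAs. Loss of the mark means at or above the limit in each wild-type male library and below it in each library of the other group, and gain means the converse. Gr21a, Gr63a, Ir48c and Ir94h lost the mark, 4 of 179 receptor genes (2.23%), and none gained it. Over all 13922 genes the shares were 1.16% lost and 0.0718% gained. Among genes marked in both libraries of wild-type males, 4 of 8 receptor genes lost the mark, against 162 of 615 (26.3%) over all genes. The 4 others were Ir48b, Ir94f, Ir94g and Or85a. The authors' −log10 q of the wild-type male peaks was 2.18 and 1.26 at Gr21a, 1.66 and 1.92 at Gr63a, 2.23 and 1.87 at Ir94h, and 3.46 and 2.94 at Ir48c.

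The covered percent was lower in each roX mutant library than in either wild-type male library at 12 of the 179 genes, against 4.91% of all genes, and higher in each at 4, against 1.79%.

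Gr21a (2L, 780482 to 782885) was covered over 99.7% and 52.9% in wild-type males and over 0% and 27.7% in roX mutant males. The groups did not overlap, but the distance between the wild-type male replicates was larger than the gap between the groups. The difference in means was -62.4 percentage points (SE 25.1, limma, adjusted p = 0.772). Of 6 other protein-coding genes within 20 kb of Gr21a, none was marked in both libraries of wild-type males.

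Gr63a (3L, 3894999 to 3896603) was covered over 63.6% and 99.9% in wild-type males and over 0% in both roX mutant libraries. The difference was -81.8 points (SE 18.2, limma, adjusted p = 0.273). The gene next to it, Fie, lies 0.2 kb away and was at 54.1% and 55.0% in wild-type males and 49.3% and 0% in roX mutant males. The other 7 genes within 20 kb had no peak in wild-type or roX mutant males.

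Ir48c (2R, 11787808 to 11789493) overlaps ths, which encodes the FGF ligand thisbe. Ir48c was covered over 94.0% and 77.8% in wild-type males and 16.1% and 0% in roX mutant males, a difference of -77.8 points (SE 17.9, limma, adjusted p = 0.290). The overlapping gene ths was at 45.1% and 57.8% in wild-type males and at 12.9% and 15.1% in roX mutant males. Values at both genes did not overlap between these groups. The peak over Ir48c also covered part of ths in each wild-type male library, so the values of the 2 genes are not independent. Within 20 kb, CG13193 was at 100% in both libraries of wild-type males and at 0% and 9.11% in roX mutant males. CG42493 was at 80.8% and 0% in wild-type males and at 0% and 65.9% in roX mutant males.

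Ir94h (3R, 23487501 to 23489180) lies in a cluster with Ir94f and Ir94g. Both roX mutant libraries were at 0%, and the wild-type males at 100% and 96.2%. The difference of -98.1 points was larger than the spread between replicates (SE 2.99, limma, adjusted p = 0.00258). Values at 0% and at or near 100% leave little room for spread, and this makes the SE small. Its neighbour Ir94g, at 61.5% and 100% in wild-type males, was at 51% and 0% in roX mutant males. Ir94f was at 82.4% and 100% in wild-type males and at 46.5% and 58.0% in roX mutant males. In wild-type male replicate 2 a single peak of 8.73 kb covered all 3 genes, so their values are not independent.

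**Figure D3:**
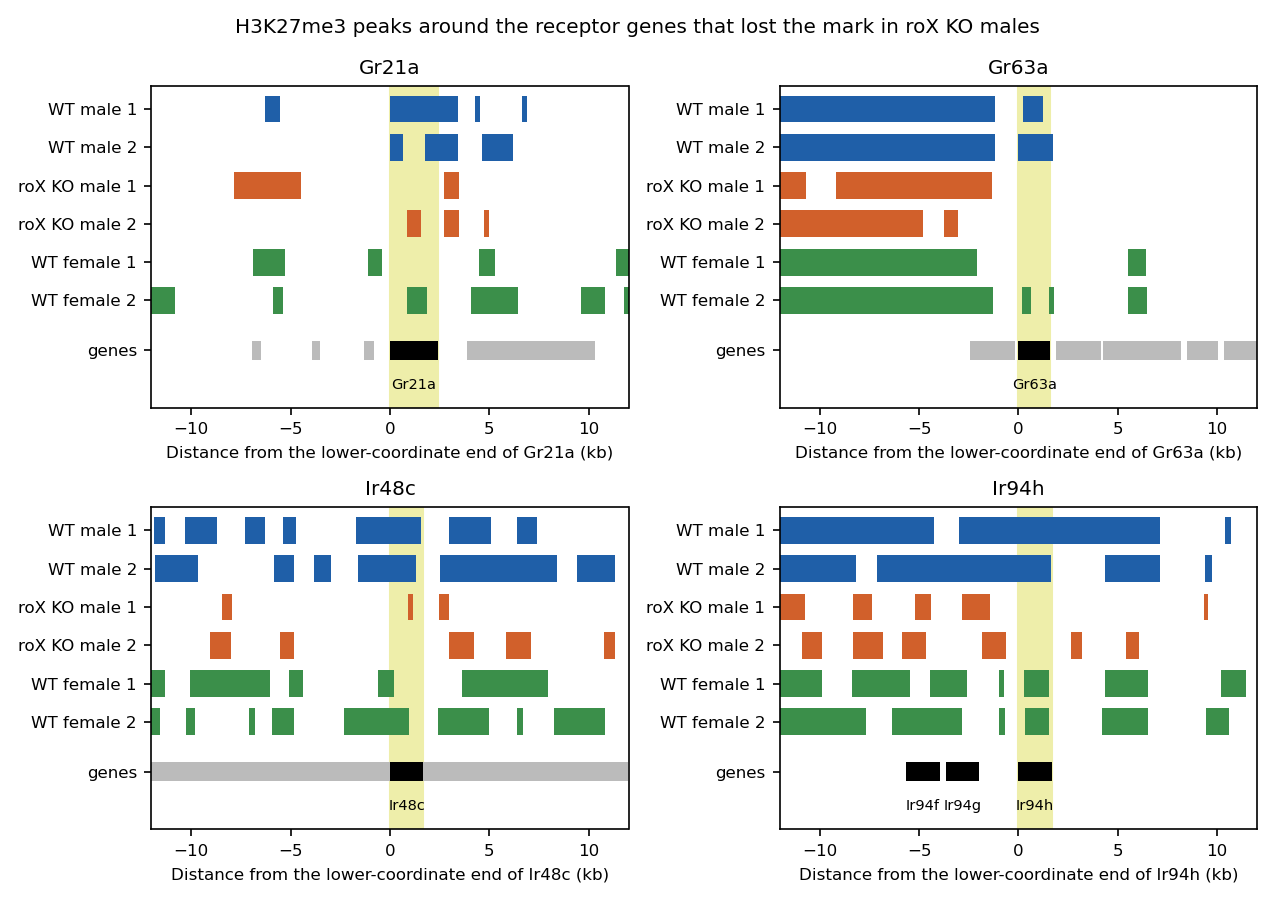
Peaks (bars) of the 6 H3K27me3 libraries within 12 kb of Gr21a, Gr63a, Ir48c and Ir94h, against distance in kb from the end of the gene with the lower coordinate; the bottom row shows receptor genes in black and other protein-coding genes in grey. The shaded gene bodies are covered over at least 52.9% in wild-type males and at most 27.7% in roX mutant males.

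With limma on the covered percent of the 4990 genes touched by a peak in at least 1 library, 93 receptor genes were tested. Of these, Ir94h alone was lower in roX mutant males at an adjusted p under 0.05, and none was higher. At that threshold 1.38% of all 4990 genes were lower and 0.0802% higher. At an unadjusted p under 0.05, 4 receptor genes were lower and 0 higher, against 6.83% and 1.24% of all genes. On simulated data limma made more false calls than its threshold allows, which bears on each gene said to pass it. The differences in mean were below 0 at 20 of the 93 genes and above 0 at 18. The median was 0, as over all genes tested. But 54 of the 93, and 2439 of the 4990, had no peak in any male library. Their difference was 0 in advance, so this median does not describe the comparison. In a fit of the 4 male libraries alone, the median was -3.64 points over 39 receptor genes and -0.787 over all 2551 genes tested.

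The largest positive differences in mean were at Or98b (25.9 points), Ir87a (23.4), Ir92a (20.5), Or67d, the receptor for the pheromone cVA (18.3), and Or47a (16.3), and none of them passed the test. Or98b was at 0% and 45.3% in wild-type males and 97.1% and 0% in roX mutant males, so its replicates disagreed in both groups. Gr59b, next to its neighbour Gr59a, was at 0% in both roX mutant libraries and at 100% and 23.9% in wild-type males. Ir41a was at 28.6% and 22.6% in wild-type males and 29.2% and 35.1% in roX mutant males. Ir93a, a humidity and temperature receptor gene, ranged from 15.3% to 47.2% in wild-type males and from 11.4% to 42.9% in roX mutant males.

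Averaged with equal weight per gene, covered percent over the 179 genes was 6.78% ± 1.29 (SD, n = 2) in wild-type males and 3.61% ± 0.154 in roX mutant males. The difference of -3.17 points had a gap of 2.16 points between the groups, against at most 1.82 points between replicates (two-sided exact permutation p = 0.333). The mean over all protein-coding genes went from 5.56% ± 0.0663 to 4.19% ± 0.841. Measured over the summed length of the bodies, the planned measure, the receptor genes were at 12% ± 2.30 and 11.3% ± 1.23. The groups overlapped there (exact permutation p = 1, two-sided). With Ir41a left out the summed values were 8.21% ± 1.76 and 5.45% ± 0.421 and did not overlap. This version and the mean with equal weight per gene were chosen after the data were seen.

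With each list shortened to the same total length by dropping its weakest peaks, Ir48c alone lost the mark, Gr63a and Ir94h were at 0% in all 4 libraries, and Gr21a was 13.8 points higher in roX mutant males. Without wild-type male replicate 2 the 4 losses became 10 and the 1 call by limma became 5. Without roX mutant replicate 2 the 0 gains became 1, Or98b, and limma called 2 genes lower, and without roX mutant replicate 1 limma called 2 higher.

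The comparison of females with wild-type males described receptor genes in the sex that has a pair of X chromosomes and no male dosage compensation complex. Gr21a and Gr63a lost the mark in females, 2 of 179 receptor genes (1.12%), against 0.460% of all genes. These were 2 of the 8 marked in both libraries of wild-type males, against 10.4% of such genes overall. Gr28a, Gr59d, Or47a and Or98b gained it, 4 of 179 (2.23%), against 1.02% of all genes. The covered percent was higher in each female library than in either wild-type male library at 27 of the 179 genes, against 11.5% of all genes, and lower in each at 10, against 3.21%. Without wild-type male replicate 2 the losses became 6, without female replicate 2 the losses became 4 and the gains 8, and without female replicate 1 the gains became 18. This comparison uses the same wild-type male libraries as the one above, so results that rest on high values in those libraries are shared by both.

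In females Gr21a was at 0% and 41.7%, and Gr63a at 0% and 33.8%, both below either wild-type male value. The differences were -55.4 points (SE 25.1, limma, adjusted p = 0.324) for Gr21a and -64.9 points (SE 18.2, limma, adjusted p = 0.144) for Gr63a. Neither passed the test.

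Of the 4 gains, Gr28a and Gr59d passed it. Both were at 0% in all 4 male libraries, where no spread can be seen, and this makes the pooled SE small. The SD between the female libraries was 16.2 points at Gr28a and 9.21 at Gr59d. Gr28a (2L, 7452520 to 7454212), a taste receptor gene used by larvae, was at 0% in the 2 libraries of wild-type males and at 84.2% and 61.4% in females, a difference of 72.8 points (SE 8.44, limma, adjusted p = 0.0246). Gr59d (2R, 23103941 to 23105169) was at 0% in wild-type males and at 73.9% and 86.9% in females, a difference of 80.4 points (SE 4.90, limma, adjusted p = 0.00642). In roX mutant males both genes were at 0%. The call at Gr28a was lost with the replicate number as a block, without the filter and in a fit of the 4 libraries alone. The call at Gr59d was kept there, but both calls were lost when either wild-type male library was left out. With lists of equal total length, or with −log10 q of at least 3, both genes were at 0% in all 6 libraries.

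Or47a (2R, 11250368 to 11251913), a receptor for pentyl acetate, was at 0% in wild-type males and 69.3% and 51.3% in females, a difference of 60.3 points (SE 13.6, limma, adjusted p = 0.0965). Or98b (3R, 28352242 to 28353620) was at 0% and 45.3% in wild-type males and 81.0% and 86.8% in females (limma, adjusted p = 0.407). The female peaks over these 4 genes had −log10 q values under 3 in the authors' lists, from 1.29 upward.

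Of 93 receptor genes tested with limma, 3 were higher in females (Gr28a, Gr59d and Gr93c) and 2 lower (Ir40a and Ir94h). Over all 4990 genes 6.91% were higher and 1.78% lower. Gr93c (3R, 21844014 to 21845265) was at 28.6% and 42.4% in females and 0% in wild-type males (limma, adjusted p = 0.0393). Ir40a was at 9.86% and 11% in females and 42.3% and 35.2% in wild-type males (limma, adjusted p = 0.0386). Ir94h was at 76.3% and 69.8% in females, so it stayed marked there (limma, adjusted p = 0.0265). Ir41a, at 4.90% and 5.84% in females against 28.6% and 22.6% in wild-type males, did not pass (limma, adjusted p = 0.0506).

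Differences in mean were above 0 at 73 of the 93 genes and below 0 at 17, with a median of 13.5 points against 7.49 points over all genes tested. Of the 93, 54 had a peak in a female library and in no male library, as 2439 of the 4990 had. These were tested only because of a female peak, so their sign was fixed in advance. With no filter the median was 0 for the receptor genes and for all genes. The female libraries also had the most peaks and touched the most genes, and the part of this in the result was not tested. The counts became 1 higher (Gr59d) and 0 lower when the replicate number was added to limma as a block or when no filter was applied, so the calls at Gr28a, Gr93c, Ir40a and Ir94h were lost there. In a fit of the 4 libraries alone Gr59d was higher and Ir48b lower. The counts also changed with a library left out, and Gr59d was not among the genes called higher when either wild-type male library was left out.

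The mean covered percent over the 179 genes was 13.8% ± 3.28 in females, 7.01 points above wild-type males (two-sided exact permutation p = 0.333). The gap of 3.77 points between the groups was smaller than the 4.65 points between the female replicates. Over all genes the female mean was 9.33% ± 1.44. Over the summed length of the bodies, the planned measure, the groups overlapped.

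The X-linked receptor genes differed between the sexes in whether any peak was found. None of the 25 had a single base under a peak in any of the 4 male libraries, wild-type or roX mutant. In females 10 and 13 of them had, 16 in at least 1 library and 7 in both. Over all 2197 X-linked protein-coding genes, 158 (7.19%) were touched in at least 1 male library and 673 (30.6%) in at least 1 female library. The shares of X-linked receptor genes were 0% in males and 64.0% in females, whose lists also held the most peaks. Females also have a pair of X chromosomes, and the part of either in this difference was not tested. On the large autosomal arms 39 of 154 receptor genes (25.3%) were touched in males and 71 (46.1%) in females, against 20.4% and 34.0% of all genes there. The mean covered percent of the 25 X-linked genes was 16.7% and 16.1% in females.

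**Figure D4:**
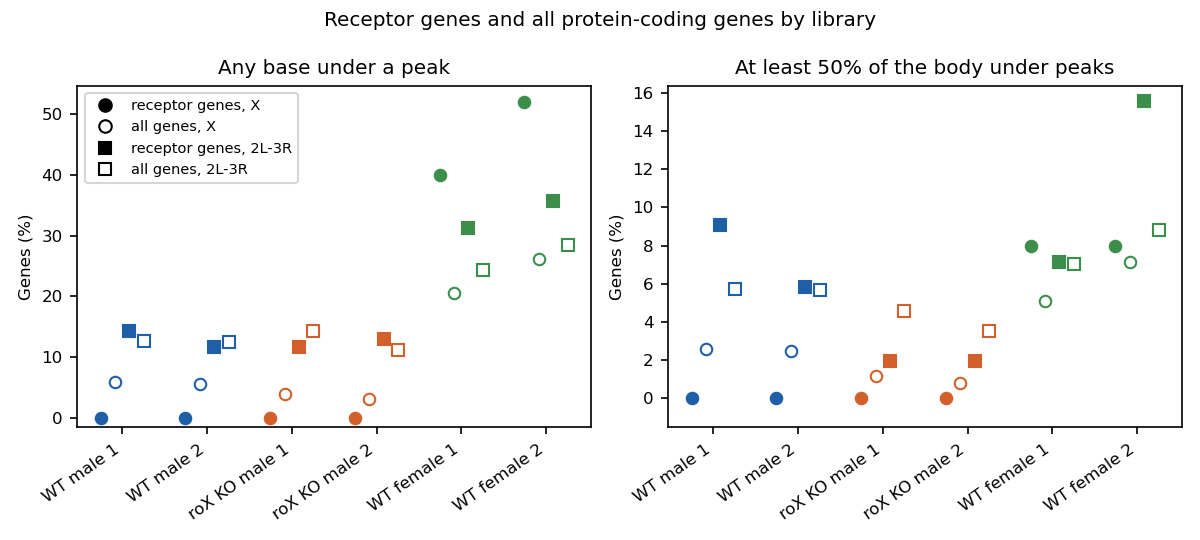
Percent of genes with any base under a peak (left) and with at least 50% of the body under peaks (right) in each library, for receptor genes (filled) and all protein-coding genes (open) on X (circles) and on 2L, 2R, 3L and 3R (squares). X-linked receptor genes are at 0% in the 4 male libraries and at 40.0% and 52.0% on the left in females.

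No X-linked receptor gene was marked in both female libraries, and 4 were marked in 1. Ir7a, required for tasting acetic acid, was at 0% and 84.8%, Ir7b at 69.5% and 0%, Ir7c, a high salt taste receptor gene, at 83.2% and 27.9%, and Gr10b at 0% and 51.1%. The Ir7 cluster (X, 7864948 to 7886976) holds 6 receptor genes, Ir7b to Ir7g, of which 4, Ir7c, Ir7d, Ir7f and Ir7g, were touched in both female libraries. Or10a and Gr10a share 1 annotated body and so have the same values, 46.4% and 8.72%. With peaks of −log10 q of at least 3, or with lists of equal total length, none of the 25 genes was touched in any library.

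Many receptor genes were marked in a single library. Among those marked in a female library, 23 of 31 were marked in only 1 of the 2, against 809 of 1465 over all genes. Female replicate 2 also had the most marked genes over all genes, 1185. Genes marked in exactly 1 of the 6 libraries were not counted over all genes. Of 22 genes marked in exactly 1 of the 6 libraries, 14 were marked in female replicate 2, 4 in female replicate 1 and 4 in wild-type male replicate 1. Beside those named, the female ones were Gr77a, Gr98b (a receptor for the plant toxin canavanine), Ir56c, Ir56d, Ir85a, Ir87a and Ir94e, at 50.7% to 100% in the marked library. Gr57a reached 61.3% in wild-type male replicate 1 and 65.8% in female replicate 2, and was at 0% in the other 4 libraries.

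Neighbouring receptor genes can share a peak or even a body, as Gr64b and Gr64c do, so their values are not independent. Grouping genes up to 10 kb apart gave 125 groups, of which 28 held 2 to 6 genes and together 82 of the 179. Of the 14 and 9 marked genes in wild-type males, 12 and 6 lay under a peak that overlapped no protein-coding gene other than receptor genes. In roX mutant males this was so for 2 of 3 in each library, and in females for 10 of 13 and 19 of 26. No such count was made over all genes.

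Other genes of the chemosensory system were counted by the same rules. Of 52 odorant-binding protein genes, 3 were marked in both libraries of wild-type males, and none lost or gained the mark in either comparison. Of 29 pickpocket sodium channel genes, which include salt, pheromone and touch channels, ppk alone lost the mark in roX mutant males. It was at 100% and 75.9% in wild-type males, 28.2% and 47.3% in roX mutant males, and 77.9% and 78.5% in females. Of 20 CheA and CheB genes, CheB93b alone was lost in females, at 0% in both libraries against 100% in all 4 male libraries.

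Of 15 transcription factor genes known from chemosensory neurons and sensory organ fate, 8 were marked in both libraries of wild-type males. So were 8 of 179 receptor genes and 615 of all 13922 genes. The median body was 19.0 kb in the 15 genes and 1.69 kb in the receptor genes. In roX mutant males 3 of the 8 lost the mark, against 26.3% of the 615. They were the olfactory neuron gene Fer1, the neural fate gene pros and the Runt-domain gene lz. Fer1 was at 62.8% and 93.1% in wild-type males and 25.8% and 17.5% in roX mutant males. pros was at 56.6% and 54.5% against 43.4% and 40.4%, and lz, on X, at 93.8% and 92.6% against 31.7% and 15.6%. None of the 15 lost or gained the mark in females.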

How the data were processed

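H3K27me3 peak lists of 6 libraries were used, grouped by the sample titles. Build dm6, deepTools 3.5.1, SAMtools 1.13, Bowtie2 2.4.5, Trimmomatic 0.39 and Picard appear in the submitters' processing notes. Which peak caller was run, and how inputs entered, is not given in the sources used here. Chromatin was fixed in 1% formaldehyde, per the labels' protocols. Each deposited list gives, per peak of 1 library, the authors' display score, fold enrichment (a ratio), −log10 p and −log10 q. Those values were used only to filter or describe peaks within a list. Peaks were merged and the covered percent of each of 13922 protein-coding gene bodies (Release 6 table, the coordinates of dm6) was computed with Python 3.11.15 and pandas 2.3.3. limma 3.58.1 was fitted to the covered percent of 4990 genes in all 6 libraries, with Benjamini-Hochberg adjustment within each comparison. Both procedures were tested on simulated data, where limma made more false calls than its threshold allows, so its calls are given beside the rule on marked genes. The members and lists were chosen with earlier results of these data known; the role lists were written from general knowledge. Named genes are those marked in any library, lost or gained, the 5 most different in each direction, and Gr21a, Gr63a, Gr43a, Ir8a, Ir25a, Ir76b and Orco. Gr93c, Ir40a, Ir41a, Ir93a, Ir94d and the neighbours of lost genes were chosen after their values were seen. No sequence was printed, since no genome was used.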

Additional observations from a re-analysis of the deposited data

How the results depend on the processing

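The results were recomputed with peaks of −log10 q of at least 3, peaks with a fold of 1.5 or more, neighbouring peaks joined across gaps up to 1 kb, lists of equal total length, marks at 20% or 80% of the body, 1 gene per 10 kb group, limma, other limma settings and each library left out. The fold limit of 1.5 and 1 gene per 10 kb group left each count within 1.5 times its value. The 4 losses in roX mutant males became 1 at −log10 q of at least 3 (Ir48b) and 1 with equal lists (Ir48c). They became 2 at a limit of 80% (Ir94f and Ir94h) and 5 at 20%, where Gr21a was not among them. They became 1 by limma in place of the rule, with or without the block, and 5 to 10 with a library left out. The 0 gains became 1 without roX mutant replicate 2 (Or98b). The 2 losses in females became 1 at −log10 q of at least 3 (Ir48b), 1 with gaps joined and 0 with equal lists. At a limit of 20% there were 4 (Ir40a, Ir41a, Or42b and Gr59b), and at 80% there were 2 (Ir48b and Ir94h). Gr21a and Gr63a were thus called lost at neither limit. With a library left out there were 2 to 6 losses. The 4 gains in females became 0 at −log10 q of at least 3, 2 with equal lists (Ir94g and Or98b) and 1 at 80% (Or98b). At 20% there were 12, and Or98b was not among them. There were 18 without female replicate 1, 8 without female replicate 2 and 4 without either wild-type male library. Leaving out a library relaxes the rule by construction. With limma in place of the rule, 2 genes were lower and 3 higher in females, and 0 and 1 once the replicate block was added to limma; the limma genes are not all those of the rule.

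By limma, the 1 lower gene in roX mutant males became 0 with equal lists and 1 to 5 with a library left out (5 without wild-type male replicate 2), and the 0 higher genes 0 to 2 (2 without roX mutant replicate 1). The 2 lower genes in females became 0 with the block, without the filter and with equal lists, 1 at −log10 q of at least 3, with gaps joined or in a fit of the 4 libraries alone, and 0 to 3 with a library left out. The 3 higher genes became 1 with the block, without the filter, with equal lists or in the 4 libraries, 0 at −log10 q of at least 3, and 0 to 41 with a library left out. The 41, without female replicate 1, and 35, without female replicate 2, arise where the lone female library is assumed to vary like male libraries at 0.

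The difference in summed covered percent, roX mutant minus wild-type males, was -0.73 points, and 6.11 with equal lists. It was -3.17 as a mean over genes and -2.76 without Ir41a, both chosen after seeing the data. With a library left out it was -2.35 to 0.90. For females minus wild-type males it was -0.03 points, 7.01 as a mean over genes and 5.62 without Ir41a, both chosen after seeing the data, and -2.00 to 1.95 with a library left out. The 16 X-linked genes touched in females became 0 at −log10 q of at least 3 and with equal lists, and 10 or 13 with a female library left out; these alternatives were also added after seeing the data. Gr21a was 13.8 points higher in roX mutant males with equal lists. The cause of these shifts was not tested.

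Replicate numbers are shared between groups, but no label says that they mark a batch. The correlation of the difference between replicates 1 and 2 across 4990 genes was -0.03 between wild-type and roX mutant males and -0.01 between wild-type males and females, so the block is given only as an alternative.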
